A study of Mus musculus with 12 samples.

Results

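The kinesin motor family was described in colonic mucosa of azoxymethane-treated mice. Members were the protein-coding gene rows whose symbol is Kif or Kifc followed by a number and at most a letter and a digit, which gave 41 of 38592 rows. They were sorted by known role into 14 mitotic kinesins, 17 transport kinesins and 10 other kinesins, the last with Kif12. Of these, 13 mitotic, 14 transport and 6 other kinesins passed the filter on low counts and were tested. Kif4-ps, which the files list as protein-coding, the pseudogenes Kif22-ps and Kifc5c-ps and the adaptor gene Kifap3 do not match the symbol rule.

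Messenger RNA of colonic mucosa was sequenced in 6 Sgo1-/+ and 6 wild type mouse samples. Sgo1 encodes shugoshin, which protects the cohesion of sister chromatids at the centromere until anaphase, and the Sgo1-/+ samples carry 1 disrupted allele, per the genotype label. Animals of both genotypes were given the colon carcinogen azoxymethane (4 mg/kg, 2 doses weekly, at ages of 8 to 12 weeks), and mucosa was taken at 9 months, so the wild type samples are carcinogen-treated too. The strain, the sex, the way the allele was made and whether the tissue held tumour are details not given in the sources used here. The question named in the series is how chromosome instability affects the colon.

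Kinesins are motor proteins that use ATP to walk along microtubules, most of them towards the plus end, while members of the Kifc group walk towards the minus end and the Kif2 group takes microtubule ends apart. Mitotic kinesins build the spindle, move chromosomes and complete cytokinesis, and their messages are known to peak in the G2 and M phases, so that in colonic epithelium they are found in the dividing cells of the crypt base. Transport kinesins carry vesicles, mitochondria, endosomes and ciliary cargo in dividing and non-dividing cells alike.

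Libraries held 6029276 to 10198304 counts in Sgo1-/+ and 5711553 to 9000763 counts in wild type samples. Sgo1-/+ libraries other than Sgo1-/+ 3 held at least 8499001 counts, and wild type libraries other than wild type 2 at most 7923578. The tested mitotic kinesins rested on 2 to 217 counts in a single library. Levels are in CPM, the count of a gene relative to its library's total, scaled by TMM, a correction for library composition. The targeted gene, listed under its older symbol Sgol1, had 2.33 ± 0.41 CPM in Sgo1-/+ and 3.65 ± 1.79 CPM in wild type libraries (SD, n = 6 each), with ranges of 1.84 to 2.77 and 1.49 to 6.80 CPM that overlap. Its log2 change was -0.67 ± 0.32 (SE; edgeR adjusted p = 0.551), so the transcript level did not separate the labels. The mitochondrial-like genes Gm13340, Gm13341 and Gm11410 took 36.3% of counts in Sgo1-/+ 3, 36.7% in wild type 3 and 35.4% in wild type 5. Elsewhere they took 10.1% to 19.1% in Sgo1-/+ and 13.7% to 21.5% in wild type libraries. Sgo1-/+ 1, 4, 5 and 6, at 10.1% to 13.1%, were below every wild type library, so this share and the genotype partly go together. In 4 libraries (Sgo1-/+ 5 and 6, wild type 1 and 6) the name of the count column carries a suffix that the other 8 lack, and no label says what it stands for. Epithelial markers were abundant in every library, with a summed level of 16425 to 27425 CPM in Sgo1-/+ and 14840 to 26339 CPM in wild type libraries. Marker sums of other cell types were low by comparison, at 14.6 to 31.5 against 13.1 to 24.1 CPM for smooth muscle, 14.9 to 32.8 against 14.7 to 42.9 CPM for fibroblasts, 13.7 to 23.3 against 11.3 to 27.4 CPM for endothelium, 11.8 to 26.3 against 12.2 to 24.9 CPM for immune cells and 9.64 to 52.0 against 13.2 to 79.2 CPM for enteric neurons and glia. Adipocyte markers summed to 1.44, 31.9 and 92.3 CPM (lowest, median, highest) in Sgo1-/+ libraries, against 0.865, 2.58 and 30.2 CPM in wild type libraries, with log2 changes of 2.74 ± 1.05 for Cfd and 2.16 ± 1.01 for Fabp4 (SE; edgeR adjusted p = 0.527 and 0.550). No listed marker was at 0 in all 12 libraries, and the part of these cells in the kinesin values was not tested.

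Transport kinesins made up most of the family's message. Per kilobase of exon, they held 79.4% of the summed CPM of all 41 members over the 12 libraries, against 11.5% for mitotic and 9.08% for other kinesins. Kif1c, a vesicle motor of the kinesin-3 group, was at 29.6 CPM per kb, and Kif5b, the widely expressed conventional kinesin heavy chain, at 26.8 CPM per kb, so that these 2 genes alone held 42.5%. Kif1c averaged 30.4 CPM per kb in Sgo1-/+ and 28.9 CPM per kb in wild type libraries, and Kif5b 26.2 CPM per kb in Sgo1-/+ and 27.5 CPM per kb in wild type libraries. Next came Kif13b at 8.55 and Kif13a at 6.69 CPM per kb, both motors of endosomes and membrane vesicles, with Kif2a, a microtubule depolymerase, between them at 6.92 CPM per kb. Tested mitotic kinesins lay in a narrow band between 0.413 CPM per kb for Kif14 and 1.67 CPM per kb for Kif11. Kif12 was at 2.11 CPM per kb, above every mitotic kinesin in the mean over all libraries.

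**Figure D1:**
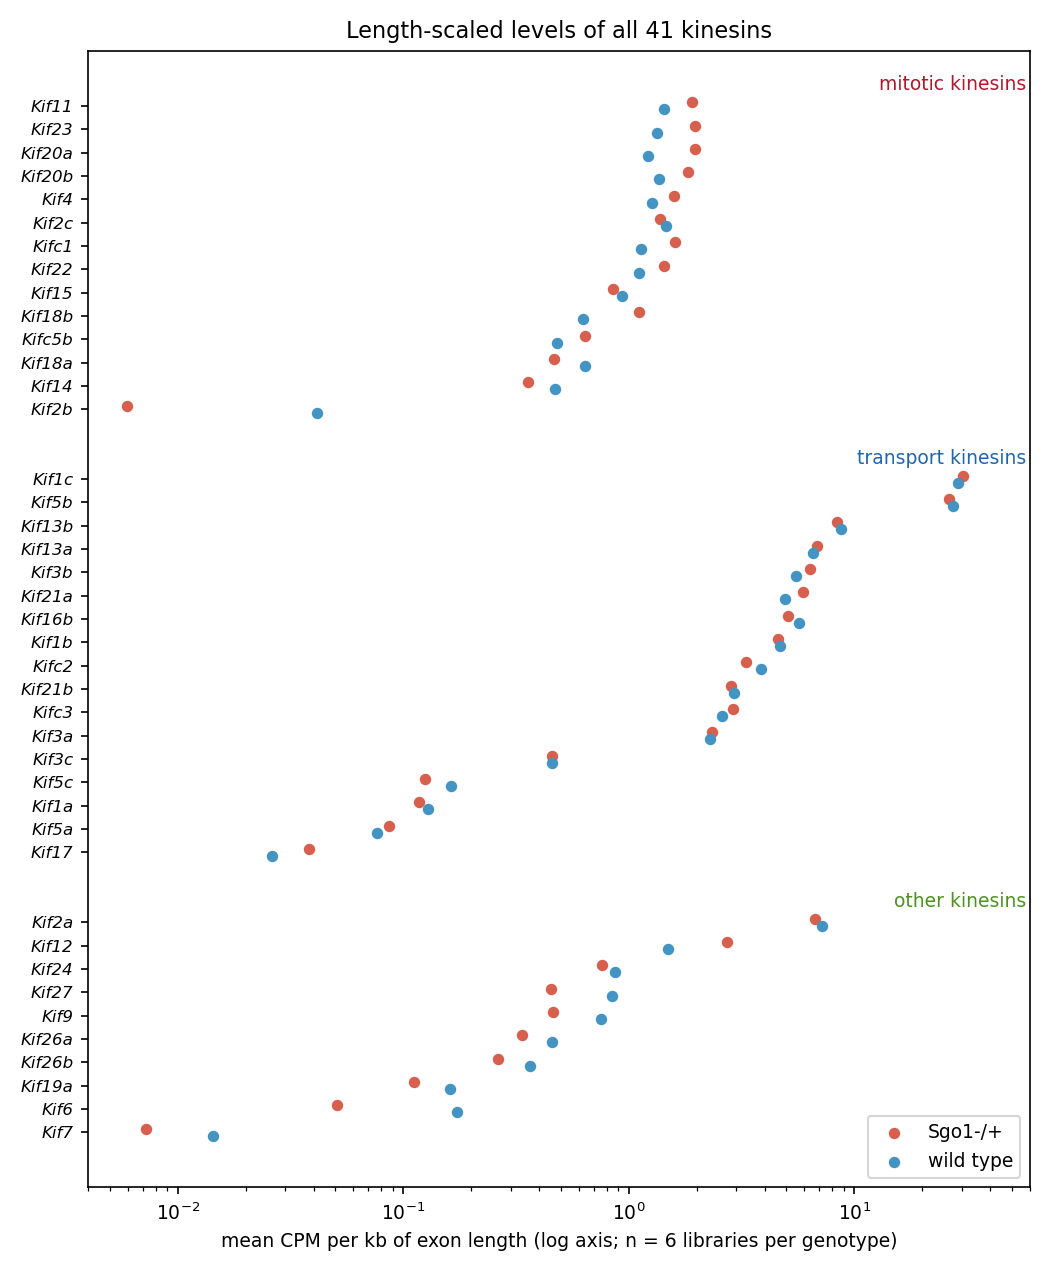
Mean level of each of the 41 kinesins in CPM per kb of exon length (horizontal log axis), with Sgo1-/+ in red and wild type in blue (points are means of 6 libraries each), sorted within the mitotic, transport and other classes. Kif1c and Kif5b stand apart at 29.6 and 26.8 CPM per kb over all libraries, and the tested mitotic kinesins sit between 0.413 and 1.67 CPM per kb.

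The filter on low counts left out 8 members. Of these, 7 were low in every library, namely the neuronal heavy chains Kif5a and Kif5c, the dendritic motor Kif17, the ciliary kinesins Kif6, Kif7 and Kif19a, and the mitotic depolymerase Kif2b. None of these 7 exceeded 4.00 CPM in any library. The other was Kif26b, a kinesin without known motility that acts in mouse kidney development, which was high in only 2 libraries. It reached 20.8 CPM in Sgo1-/+ 3 and 27.6 CPM in wild type 1, and lay between 0.099 and 1.72 CPM in the other 10 libraries.

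The genotypes were compared with edgeR's quasi-likelihood test over 13889 genes. No gene and no kinesin passed an adjusted p of 0.05 in it (0 genes, 0%), and limma-voom also called none, while DESeq2 called 30 genes (0.216%) with Kif12 as the only kinesin. At an unadjusted p under 0.05, edgeR listed 4 of the 33 kinesins tested, against 9.04% of all genes. These were Kif12, Kif23 and Kif20a, which were higher in Sgo1-/+ libraries (4.31% of all genes), and Kif27, which was lower (4.73% of all genes). Over the whole family 17 members had a log2 change above 0 and 16 below, with a median of 0.01, against 49% of all genes above 0 and a median over all genes of -0.01.

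**Figure D2:**
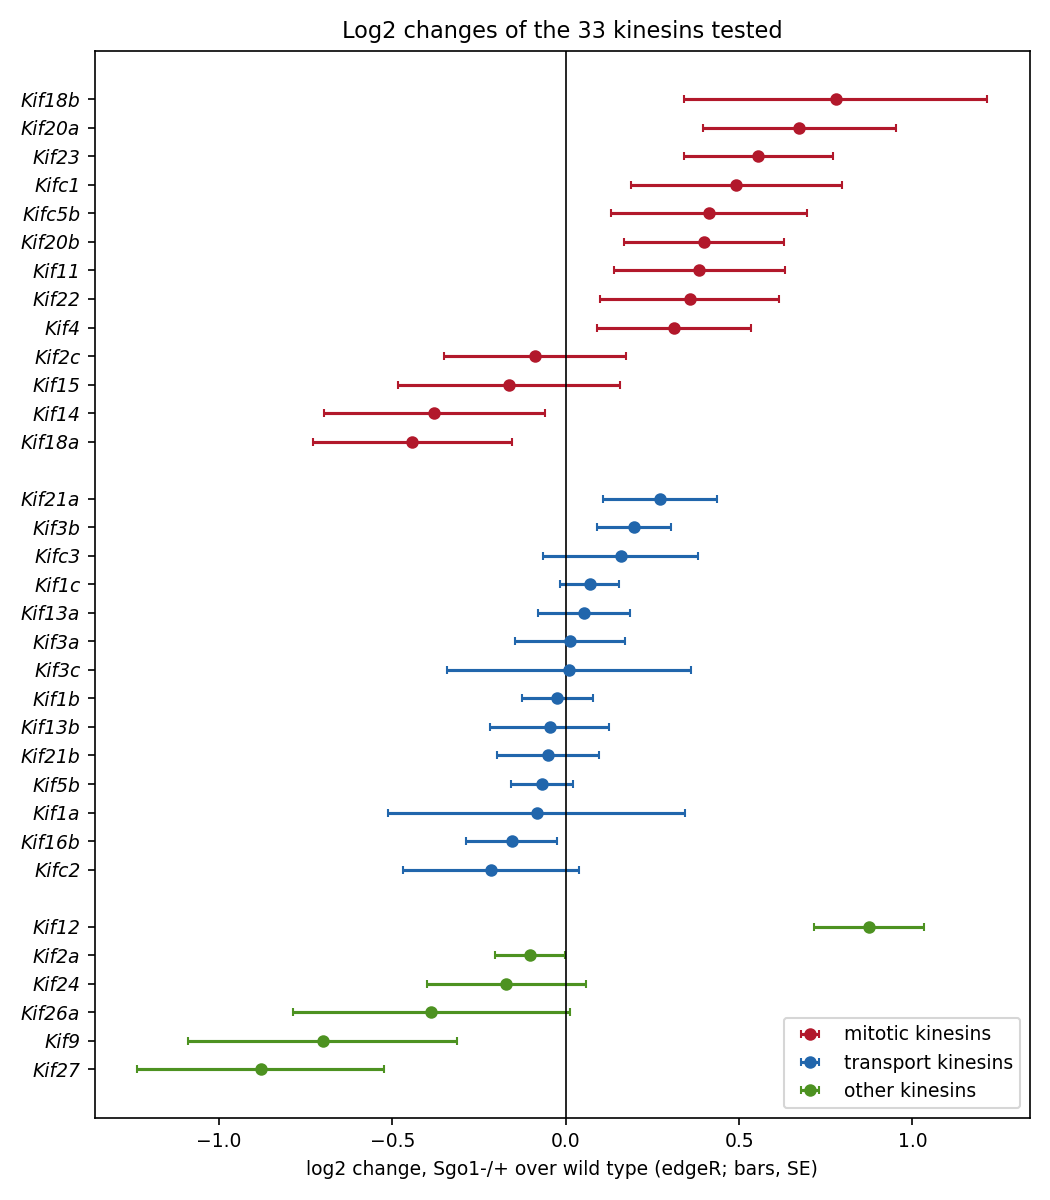
Log2 change of each of the 33 kinesins tested (horizontal axis, Sgo1-/+ over wild type, edgeR; bars are the SE, n = 6 libraries each), in red for mitotic, blue for transport and green for other kinesins. Of the mitotic kinesins 9 lie above 0 and 4 below, transport kinesins lie between -0.21 and 0.27, and Kif12 at 0.87 stands opposite Kif27 at -0.88.

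Among mitotic kinesins, 9 of 13 were higher in Sgo1-/+ libraries and 4 were lower, none past the adjusted threshold, with a median log2 change of 0.39. With total counts as the only scaling 11 of 13 were higher, which is near the share over all genes under that scaling (83.7%). The summed level of the class was 85.7 CPM at the lowest, 105 CPM at the median and 114 CPM at the highest in Sgo1-/+ libraries, against 59.6, 76.2 and 128 CPM in wild type libraries. The highest sum belonged to wild type 2, so the groups overlap. In bulk mucosa, fewer cells of a type and less RNA per cell cannot be told apart. The median was 0.60 without wild type 2, 0.63 within the 4 suffix libraries, 0.26 within the other 8 and 0.17 after adjustment for the mitochondrial-like share, and the part of these in the difference was not tested.

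Kif23 and Kif20a work at the midzone of the anaphase spindle. Kif23, the motor of the centralspindlin complex that it forms with Racgap1 (ENSMUSG00000032254, chr9:61917280-61946799, minus strand, mm10), was at 12.2, 15.4 and 19.9 CPM (lowest, median, highest) in Sgo1-/+ libraries, against 6.78, 10.3 and 17.3 CPM in wild type libraries. Every Sgo1-/+ library was above the wild type median, and wild type 2 was the 1 wild type library among the Sgo1-/+ values. The log2 change was 0.56 ± 0.21 (SE; edgeR p = 0.0217, adjusted p = 0.527), and the exact two-sided permutation test over the 924 ways to assign the labels gave p = 0.0238. Kif20a, which carries the chromosomal passenger complex to the midzone (ENSMUSG00000003779, chr18:34624624-34633265, plus strand), was at 4.85, 8.75 and 10.8 CPM in Sgo1-/+ libraries, against 3.02, 4.49 and 9.77 CPM in wild type libraries. Again all 6 Sgo1-/+ libraries lay above the wild type median, with wild type 2 as the highest wild type value. Its log2 change was 0.67 ± 0.28 (edgeR p = 0.0300, adjusted p = 0.530; exact permutation p = 0.0390), and it was 1.23 within the suffix libraries, 0.41 within the others and 0.38 after adjustment for the mitochondrial-like share. Kif20a overlaps Cdc23 on the opposite strand, and the sources used here do not give whether counting used strand.

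Kif18b, which trims astral microtubules, had the largest log2 change of the mitotic kinesins and also the largest SE. It was at 1.85, 4.02 and 5.59 CPM in Sgo1-/+ libraries, against 0.503, 1.99 and 5.27 CPM in wild type libraries. The 2 highest Sgo1-/+ values are in libraries 1 and 2, and wild type 2 again stands with them. The log2 change of 0.78 ± 0.44 had an adjusted p of 0.599 in edgeR (exact permutation p = 0.0693) and was 1.29 without wild type 2 and 0.48 after adjustment for the mitochondrial-like share. Kif20b, a late-mitosis kinesin of cytokinesis, was even across Sgo1-/+ libraries at 11.2, 12.8 and 13.8 CPM, against 5.33, 8.66 and 16.4 CPM in wild type libraries. The narrow Sgo1-/+ range lay inside the wide wild type range, and the log2 change was 0.40 ± 0.23 (edgeR adjusted p = 0.616; exact permutation p = 0.0606). It was 0.16 within the suffix libraries and 0.65 without wild type 2. Kifc1, the minus-end motor that focuses spindle poles, was at 2.54, 5.91 and 6.79 CPM in Sgo1-/+ libraries, against 1.76, 3.51 and 6.99 CPM in wild type libraries. Its log2 change was 0.49 ± 0.30 (edgeR adjusted p = 0.639; exact permutation p = 0.121). That change was 0.99 within the suffix libraries, 0.25 within the others, 0.78 without wild type 2 and 0.15 after adjustment for the mitochondrial-like share. Reads of Kifc1 may be split with its near copy Kifc5b, whose log2 change was 0.41 ± 0.28, or 0.85 within the suffix libraries and 0.26 within the others.

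**Figure D3:**
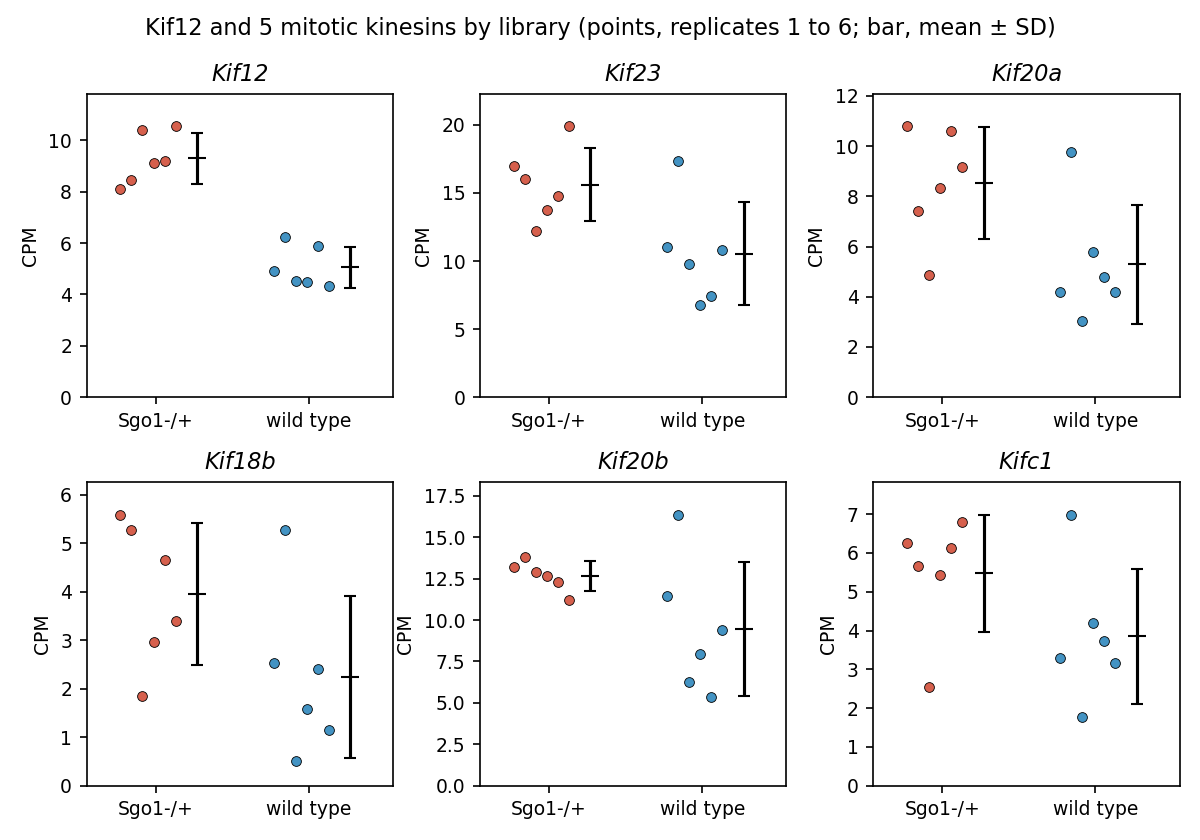
Level in CPM (vertical axes from 0) of Kif12 and of 5 mitotic kinesins in each library, Sgo1-/+ in red on the left and wild type in blue on the right (points in replicate order 1 to 6; bars are mean ± SD, n = 6). The 6 Sgo1-/+ libraries of Kif12, at 8.10 to 10.6 CPM, are all above the wild type maximum of 6.23 CPM, while in each mitotic panel wild type 2 is the highest wild type library and exceeds at least 1 Sgo1-/+ library.

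The motors that set up spindle bipolarity had log2 changes of opposite sign, neither past the threshold. Kif11, which pushes the spindle poles apart, averaged 14.2 ± 2.67 CPM in Sgo1-/+ and 10.7 ± 4.63 CPM in wild type libraries (SD, n = 6 each), a log2 change of 0.39 ± 0.25 (edgeR adjusted p = 0.649), which was 0.65 without wild type 2 and 0.17 after adjustment for the mitochondrial-like share. Kif15, which can back up Kif11, averaged 9.35 ± 1.17 CPM in Sgo1-/+ and 10.3 ± 6.87 CPM in wild type libraries, with a log2 change of -0.16 ± 0.32 that became 0.26 without wild type 1. That library had 23.6 CPM of Kif15, the highest of all 12. The chromokinesins Kif22 and Kif4 push chromosome arms away from the poles. Their log2 changes were 0.36 ± 0.26 and 0.31 ± 0.22, neither past the adjusted threshold (edgeR adjusted p = 0.686 and 0.680). Within the suffix libraries they were 0.63 for Kif22 and 0.78 for Kif4, against 0.19 and 0.07 within the others, and after adjustment for the mitochondrial-like share 0.15 for Kif22 and 0.18 for Kif4. Kif4 can share reads with Kif4-ps, and it overlaps Pdzd11 on the opposite strand.

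Kinesins with a lower mean in Sgo1-/+ libraries include regulators of kinetochore microtubules. Kif18a, which dampens chromosome movements at the metaphase plate, was at 3.85, 4.49 and 5.54 CPM in Sgo1-/+ libraries, against 3.28, 5.78 and 12.3 CPM in wild type libraries. All 6 Sgo1-/+ libraries lay below the wild type median, and the wild type maximum is in wild type 5, the library with the lowest total count. The log2 change was -0.44 ± 0.29 (edgeR adjusted p = 0.653), or -0.16 without wild type 5, -0.04 within the suffix libraries and -0.60 within the others. Kif14, a cytokinesis motor that works with citron kinase, averaged 3.69 ± 1.10 CPM in Sgo1-/+ and 4.87 ± 2.64 CPM in wild type libraries, with a log2 change of -0.38 ± 0.32 (edgeR adjusted p = 0.725) and -0.08 without wild type 5. Kif2c, the centromeric depolymerase that frees wrongly attached microtubules, had a log2 change of -0.09 ± 0.26 (edgeR adjusted p = 0.932), which was 0.55 within the suffix libraries.

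Genes whose products work with the mitotic kinesins were also mostly higher in Sgo1-/+ libraries, none past the adjusted threshold. Of 15 such partners, 14 had a log2 change above 0, with a median of 0.47, and 7 were at an unadjusted p under 0.05, all higher in Sgo1-/+ libraries, against 4.31% of all genes. Incenp, the scaffold of the chromosomal passenger complex, averaged 17.2 ± 3.64 CPM in Sgo1-/+ and 10.3 ± 3.02 CPM in wild type libraries (SD, n = 6 each), a log2 change of 0.74 ± 0.20 (edgeR adjusted p = 0.491), which was 1.33 within the suffix libraries and 0.46 within the others. Cenpe, a kinesin of the kinetochore that carries another kind of symbol, had a log2 change of 0.50 ± 0.18 (edgeR adjusted p = 0.524), or 0.84 within the suffix libraries and 0.37 within the others. Racgap1, the partner of Kif23, was at 0.25 ± 0.19, and Cit, the partner of Kif14, was the 1 partner below 0, at -0.41 ± 0.40, a value that was 0.11 after adjustment for the mitochondrial-like share. Of 16 proliferation markers, 15 were above 0, with a median of 0.29 and 4 at an unadjusted p under 0.05. Their sum was 315, 401 and 458 CPM in Sgo1-/+ libraries, against 242, 295 and 473 CPM in wild type libraries, with wild type 2 again at the top. Within the libraries without the suffix, Cdc20, Mcm5, Tyms, Cdk1, Rrm2 and Pcna had log2 changes below 0, at -0.30 to -0.03. The other proliferation markers were above 0 there, at 0.03 to 0.57. Within the suffix libraries only Tyms was below 0, at -0.30, and Mcm3 was the highest, at 2.08. Mki67, the marker of cycling cells, averaged 107 ± 17.6 CPM in Sgo1-/+ and 74.0 ± 28.0 CPM in wild type libraries (log2 change 0.53 ± 0.20, edgeR adjusted p = 0.527). Ccna2, a cyclin of the S and G2 phases, averaged 32.8 ± 6.46 CPM in Sgo1-/+ and 23.0 ± 7.39 CPM in wild type libraries (log2 change 0.51 ± 0.19, edgeR adjusted p = 0.527), with a log2 change of 0.83 within the suffix libraries and 0.36 within the others. The part of these markers in the kinesin differences was not tested.

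Levels of the mitotic kinesins were next compared with Mki67 across the 12 libraries, since Mki67 varied widely, with 135 CPM in Sgo1-/+ 1 at the top and 53.1 CPM in wild type 5 at the bottom. Kif23 followed it most closely by rank, with r = 0.91 and rho = 0.94 (log2 CPM, permutation p adjusted over 33 kinesins 0.00115 for r and 0.00165 for rho). Kif20b had r = 0.90, Kif18b 0.81, Kif11 0.80, Kif20a 0.79, Kif22 0.77 and Kifc1 0.70, and all 7 passed an adjusted permutation p of 0.05. Kifc1 did so narrowly (0.0490) and no longer did without wild type 1 (0.0703) or without wild type 2 (0.112). One transport kinesin, Kifc3, also passed on r (0.71, adjusted permutation p = 0.0490) but not on rho (0.68, adjusted permutation p = 0.0760), nor on r without wild type 2 (adjusted permutation p = 0.0967), and no other kinesin did. Median r was 0.70 for mitotic, 0.08 for transport and -0.19 for other kinesins. Kif18a and Kif14 stood against their class at -0.42 and -0.22.

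The relation with Mki67 was also computed within each genotype, and how much of it lies between the genotypes was not tested. Within the 6 wild type libraries r of the 7 mitotic kinesins was 0.65 to 0.92, and within the 6 Sgo1-/+ libraries it was 0.04 to 0.80. The exact permutation p was under 0.05 for 4 of the 7 within wild type (Kif23, Kif20b, Kif11 and Kif22), not for Kif18b (0.165), Kif20a (0.142) and Kifc1 (0.228), and for none within Sgo1-/+ libraries. Without wild type 4 and 5, the 2 libraries farthest from the Mki67 median, r was 0.64 to 0.92 and 5 of the 7 passed. In the 8 libraries without the suffix r was 0.68 to 0.97, while the 4 with it are too few for a value. Where libraries were scaled by their total counts alone, 23 of the 33 kinesins passed, Kif1c and Kif5b among them, so the number of kinesins related to Mki67 depends on the scaling.

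**Figure D4:**
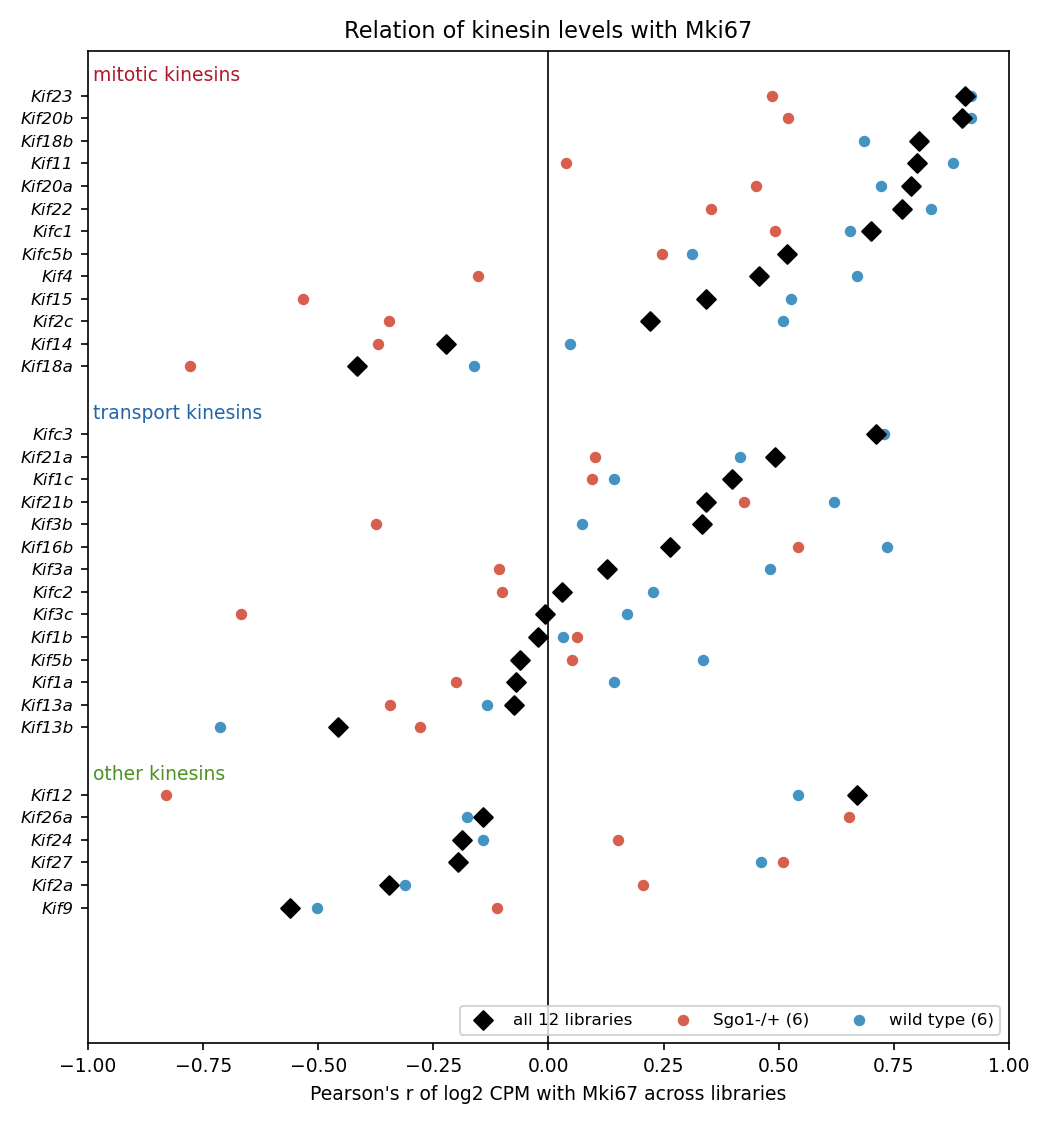
Pearson's r between the log2 CPM of each kinesin and that of Mki67 (horizontal axis) over all 12 libraries (black diamonds), the 6 Sgo1-/+ libraries (red) and the 6 wild type libraries (blue). Mitotic kinesins lie to the right with Kif23 at 0.91, except Kif18a at -0.42 and Kif14 at -0.22, and Kif12 has r = 0.67 over all libraries but -0.83 within Sgo1-/+ libraries.

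Promoters of the mitotic kinesins share sequence elements known from genes of the late cell cycle. In these genes a cell cycle homology region (CHR, written TTTGAA or TTCGAA) is bound by the DREAM and MuvB complexes, and CCAAT boxes are bound by NF-Y. RefSeq windows of 300 bases on GRCm38.p6, which run between 250 bases before and 50 after a gene's start, were at hand for 33 members, and both strands were searched. A CHR was found in 11 of 13 mitotic, 1 of 11 transport and 3 of 9 other kinesins, against 21.7% of all 27025 genes with a window. A CCAAT box was found in 9 of 13, 3 of 11 and 4 of 9, against 41.1% of all genes, and both elements together in 8 of 13, 0 of 11 and 3 of 9, against 8.61%. Motif matches are letters in a window and not shown binding sites. Not every window sits at the start of the gene as listed with the counts. The Kif2c window (chr4:117178723-117179022) lies inside its gene, which is listed from 117182639 on the minus strand. The Kif17 window and the Kif1a window with the CHR also lie inside their genes. So does the Kif4 window (chrX:100625815-100626114), whose gene is listed from 100625737 on the plus strand. The Kif7 window (chr7:79715658-79715957) lies before its gene, which is listed from 79714186 on the minus strand.

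The windows of 6 of the 7 mitotic kinesins related to Mki67 are shown first, with the CHR and CCAAT matches on either strand in capitals, and Kif20a is named only. Kif14 and Kif18a follow as mitotic kinesins with a negative r, then Kif12 and Kif1c as non-mitotic members. Each is read 5′ to 3′ on the gene's strand, with 250 bases before the start and 30 after it. Kif23 (chr9:61946770-61947049, minus), Kif11 (chr19:37376132-37376411, plus), Kif20b (chr19:34922108-34922387, plus), Kif18b (chr11:102925095-102925374, minus), Kif22 (chr7:127042391-127042670, minus), Kifc1 (chr17:33890604-33890883, minus), Kif14 (chr1:136467598-136467877, plus), Kif18a (chr2:109280488-109280767, plus), Kif12 (chr4:63172102-63172381, minus) and Kif1c (chr11:70700298-70700577, plus) read as follows on GRCm38.p6.
Kif23: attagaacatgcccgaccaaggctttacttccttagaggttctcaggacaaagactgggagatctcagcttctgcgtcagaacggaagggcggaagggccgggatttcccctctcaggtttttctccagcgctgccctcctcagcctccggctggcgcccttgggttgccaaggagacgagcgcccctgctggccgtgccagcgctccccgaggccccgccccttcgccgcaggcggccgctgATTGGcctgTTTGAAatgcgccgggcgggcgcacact
Kif11: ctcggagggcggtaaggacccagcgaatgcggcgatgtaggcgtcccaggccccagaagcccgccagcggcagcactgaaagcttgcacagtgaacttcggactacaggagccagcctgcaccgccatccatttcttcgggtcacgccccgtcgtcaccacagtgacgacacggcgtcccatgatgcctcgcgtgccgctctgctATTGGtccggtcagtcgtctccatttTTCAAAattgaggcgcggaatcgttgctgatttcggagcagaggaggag
Kif20b: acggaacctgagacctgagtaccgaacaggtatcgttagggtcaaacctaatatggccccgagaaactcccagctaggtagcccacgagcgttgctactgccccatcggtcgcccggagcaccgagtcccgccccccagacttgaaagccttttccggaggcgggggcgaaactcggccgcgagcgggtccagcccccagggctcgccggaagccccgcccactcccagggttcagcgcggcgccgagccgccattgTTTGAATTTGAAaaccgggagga
Kif18b: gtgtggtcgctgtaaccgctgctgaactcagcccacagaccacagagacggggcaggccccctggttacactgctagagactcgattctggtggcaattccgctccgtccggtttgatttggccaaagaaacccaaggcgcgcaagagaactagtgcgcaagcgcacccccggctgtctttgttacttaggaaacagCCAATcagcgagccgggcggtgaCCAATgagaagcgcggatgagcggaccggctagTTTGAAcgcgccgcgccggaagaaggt
Kif22: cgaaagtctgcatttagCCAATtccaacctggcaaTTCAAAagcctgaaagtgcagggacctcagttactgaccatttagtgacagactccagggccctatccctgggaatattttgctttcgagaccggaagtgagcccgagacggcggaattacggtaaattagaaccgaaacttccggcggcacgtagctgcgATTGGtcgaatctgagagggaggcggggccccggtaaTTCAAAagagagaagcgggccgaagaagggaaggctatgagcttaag
Kifc1: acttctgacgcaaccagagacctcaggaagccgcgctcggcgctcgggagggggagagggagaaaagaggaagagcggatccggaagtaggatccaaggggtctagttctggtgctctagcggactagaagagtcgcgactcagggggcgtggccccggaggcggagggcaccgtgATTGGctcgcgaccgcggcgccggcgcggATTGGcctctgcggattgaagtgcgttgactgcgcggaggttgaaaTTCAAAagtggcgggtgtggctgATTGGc
Kif14: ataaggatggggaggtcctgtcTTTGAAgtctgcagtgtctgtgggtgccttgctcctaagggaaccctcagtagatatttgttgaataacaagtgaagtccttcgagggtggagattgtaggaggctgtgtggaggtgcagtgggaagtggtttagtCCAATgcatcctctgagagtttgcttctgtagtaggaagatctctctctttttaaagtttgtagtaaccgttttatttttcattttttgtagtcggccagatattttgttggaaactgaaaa
Kif18a: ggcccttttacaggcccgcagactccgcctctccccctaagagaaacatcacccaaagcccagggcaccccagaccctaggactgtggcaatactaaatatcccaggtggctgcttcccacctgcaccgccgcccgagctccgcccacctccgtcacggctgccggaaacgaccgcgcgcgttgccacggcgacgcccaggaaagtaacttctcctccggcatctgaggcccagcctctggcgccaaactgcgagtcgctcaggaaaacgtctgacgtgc
Kif12: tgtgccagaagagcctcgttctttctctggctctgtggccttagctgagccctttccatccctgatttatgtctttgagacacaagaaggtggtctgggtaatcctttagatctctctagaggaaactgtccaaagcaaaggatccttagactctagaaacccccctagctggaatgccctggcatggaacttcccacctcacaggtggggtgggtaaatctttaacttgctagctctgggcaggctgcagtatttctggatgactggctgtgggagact
Kif1c: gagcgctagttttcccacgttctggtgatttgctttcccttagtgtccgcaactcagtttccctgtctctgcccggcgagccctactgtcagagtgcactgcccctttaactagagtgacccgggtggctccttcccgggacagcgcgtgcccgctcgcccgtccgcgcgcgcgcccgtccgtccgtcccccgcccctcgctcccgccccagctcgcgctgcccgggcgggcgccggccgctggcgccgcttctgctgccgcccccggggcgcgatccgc
All 6 windows of kinesins related to Mki67 hold a CHR at or close to the start, in Kif20b as a pair side by side and in Kif22 with another farther before it. A CHR did not mark out the kinesins related to Mki67, since Kif14, Kif15, Kif4, Kifc5b and Kif2c, whose relation did not pass, hold one too. The windows of Kif18a, Kif12 and Kif1c hold neither element.

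Transport kinesins showed no common direction, with 7 above and 7 below 0 and a median log2 change of -0.01, and with total counts as the only scaling all 14 were above 0 while the median over all genes moved to 0.31. None was at an unadjusted p under 0.05. Their summed level was 811, 879 and 924 CPM in Sgo1-/+ libraries, against 830, 868 and 931 CPM in wild type libraries. Kif1c was at 212, 223 and 228 CPM in Sgo1-/+ libraries, against 199, 207 and 233 CPM in wild type libraries. The ranges overlap, with wild type 2, 3 and 6 among the Sgo1-/+ values or above them, and the log2 change was 0.07 ± 0.08 (edgeR adjusted p = 0.813).

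Kif3b, a subunit of the heterotrimeric kinesin-2 that builds cilia, had the smallest p of the class. It was at 32.3, 34.0 and 41.3 CPM in Sgo1-/+ libraries, against 25.6, 31.3 and 35.9 CPM in wild type libraries. All 6 Sgo1-/+ libraries exceeded the wild type median, and the log2 change was 0.20 ± 0.11 (edgeR p = 0.0864, adjusted p = 0.587; exact permutation p = 0.0628). Its partners in the same motor are Kif3a, described with the rest of the class, and the adaptor Kifap3, which had a log2 change of 0.29 ± 0.16 (edgeR adjusted p = 0.601) that was 0.02 within the suffix libraries. Kif21a, which holds back microtubule growth, was at 27.3, 37.2 and 49.4 CPM in Sgo1-/+ libraries, against 24.4, 31.4 and 42.4 CPM in wild type libraries. Its log2 change of 0.27 ± 0.17 (edgeR adjusted p = 0.631; exact permutation p = 0.152) was 0.65 within the suffix libraries, 0.11 within the others and 0.16 after adjustment for the mitochondrial-like share.

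Kif16b, a motor of early endosomes, was at 38.8, 47.6 and 52.7 CPM in Sgo1-/+ libraries, against 36.8, 51.4 and 63.3 CPM in wild type libraries. The overlap is nearly complete, and the log2 change of -0.16 ± 0.13 (edgeR adjusted p = 0.728; exact permutation p = 0.307) was 0.15 with total counts as the only scaling, -0.07 without wild type 2 and -0.28 after adjustment for the mitochondrial-like share. Kifc2, a minus-end motor known from mouse axons and dendrites, averaged 13.0 ± 2.75 CPM in Sgo1-/+ libraries (median 13.1, highest 17.3), against 15.1 ± 5.47 CPM in wild type libraries (median 15.3, highest 22.9; SD, n = 6 each). Both ends of its range were wild type libraries, and the log2 change was -0.21 ± 0.25 (edgeR adjusted p = 0.806; exact permutation p = 0.677), or 0.10 with total counts as the only scaling. The other 9 transport kinesins had log2 changes of -0.08 to 0.16, with SEs of 0.09 to 0.43. Kif5b was the most precisely measured of these and Kif1a, at 0.123 CPM per kb, the least.

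Adaptors of transport kinesins and the opposing motor likewise held no shared direction. Of 15 adaptor and light-chain genes tested, 7 were above and 8 below 0, with a median of -0.06 and none at an unadjusted p under 0.05. Spag9, a scaffold that links kinesin-1 to cargo, averaged 83.6 CPM in Sgo1-/+ and 99.5 CPM in wild type libraries, with a log2 change of -0.25 ± 0.13 (edgeR adjusted p = 0.553) that was 0.10 with total counts as the only scaling. Of 21 subunits and regulators of cytoplasmic dynein and dynactin, 8 were above and 13 below 0, with a median of -0.04. Nde1, which works with dynein in mitosis, and Dync1li2, a light intermediate chain, were higher at an unadjusted p under 0.05, with log2 changes of 0.53 ± 0.23 and 0.21 ± 0.10 (edgeR adjusted p = 0.536 and 0.548), against 4.31% of all genes. The change of Nde1 was 0.97 within the suffix libraries and 0.30 within the others.

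**Figure D5:**
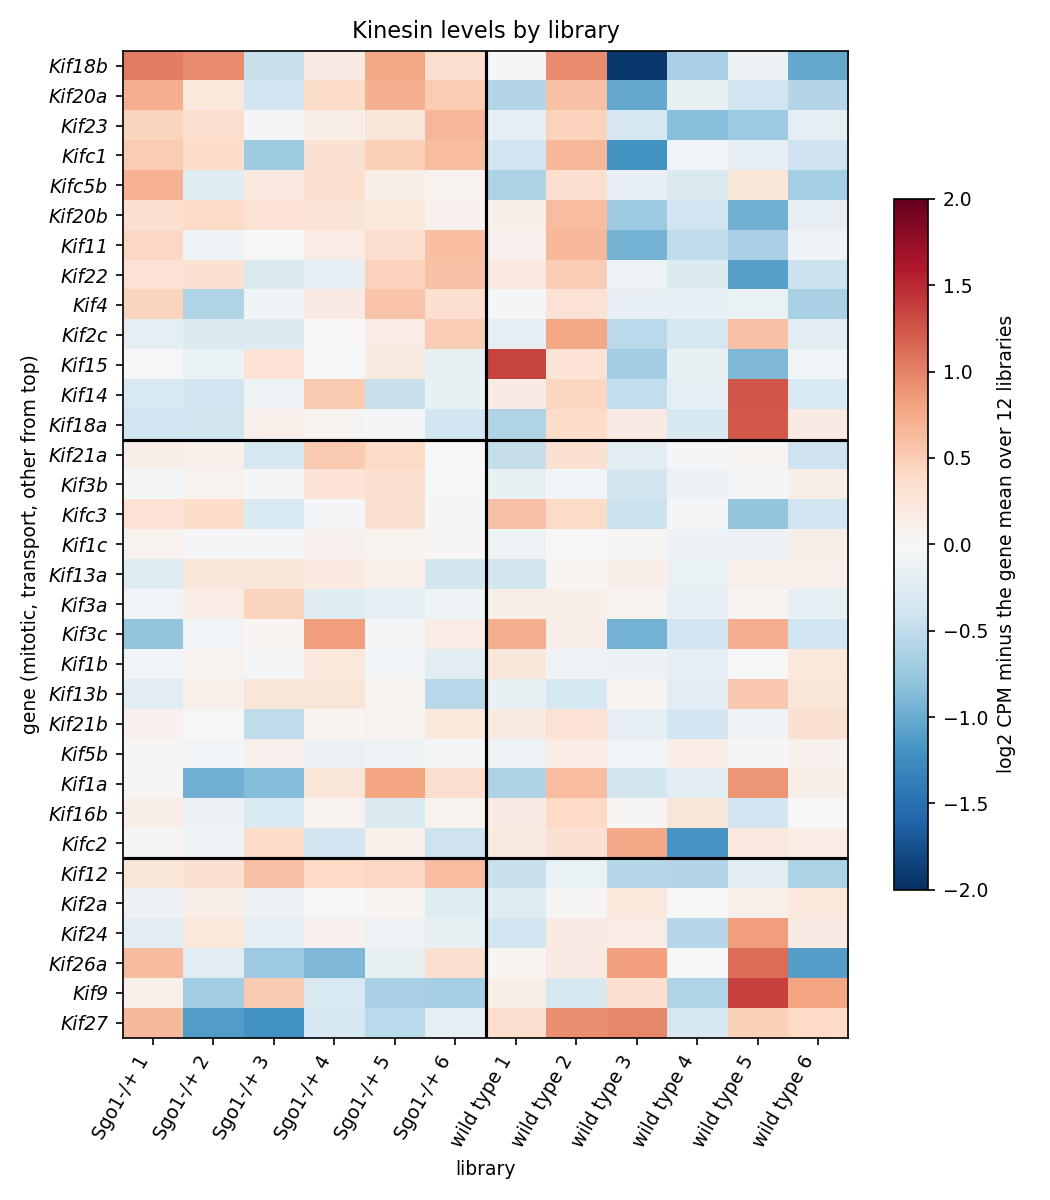
Deviation of each tested kinesin from its own mean over the 12 libraries (colour, log2 CPM, red above and blue below), with Sgo1-/+ libraries on the left, wild type libraries on the right and the mitotic, transport and other classes from top to bottom. Kif12 is red in all 6 Sgo1-/+ and blue in all 6 wild type libraries, and the upper mitotic kinesins share a red column in wild type 2.

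Kif12 was the member with the clearest difference between the genotypes. It is known in mice as a modifier of polycystic kidney disease and for its expression in kidney epithelium, and it is not counted among the spindle motors. The gene (ENSMUSG00000028357, chr4:63165634-63172131, minus strand, mm10) was at 8.10, 9.16 and 10.6 CPM in Sgo1-/+ libraries, against 4.33, 4.72 and 6.23 CPM in wild type libraries. All 6 Sgo1-/+ libraries were above the highest wild type library, which was the case for 31 of the 13889 genes tested (0.223%). No kinesin had all its Sgo1-/+ libraries below the lowest wild type library, as 0.122% of genes had. Its mean was 9.31 ± 0.99 CPM in Sgo1-/+ and 5.06 ± 0.80 CPM in wild type libraries (SD, n = 6 each).

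The log2 change of Kif12 was 0.87 ± 0.16, with an edgeR p of 8.25e-05 and an adjusted p of 0.382, so it did not pass over all genes in that test. DESeq2 gave an adjusted p of 0.00967, and Kif12 was one of its 30 calls. The exact two-sided permutation test gave p = 0.00216, unadjusted and the smallest it can give. That p follows from the groups not overlapping, so it adds no separate evidence. Groups did not overlap in 0.223% of all genes with higher and 0.122% with lower Sgo1-/+ values. Without any single library the log2 change stayed between 0.84 and 0.97. It was 1.09 within the suffix libraries, 0.77 within the others and 0.88 after adjustment for the mitochondrial-like share, and over all 24 alternatives it ran from 0.77 to 1.17. The 1.17 came with total counts as the only scaling, where the median over all genes was 0.31. Outside DESeq2, the adjusted p of Kif12 in these alternatives ran from 0.135 to 0.999 (edgeR or limma-voom). The value rests on 45 to 115 counts in a Sgo1-/+ library and 18 to 65 counts in a wild type library. Against Mki67, Kif12 had r = 0.67 over all libraries (adjusted permutation p = 0.0791), which passed without wild type 2 (r = 0.76, adjusted permutation p = 0.0470) and with total counts as the only scaling (adjusted permutation p = 0.00157). It had r = -0.83 within Sgo1-/+ libraries (exact permutation p = 0.0611) and 0.54 within wild type libraries (exact permutation p = 0.264).

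The remaining kinesins outside both classes were lower on average in Sgo1-/+ libraries. Kif27, a relative of the Hedgehog regulator Kif7 that acts in motile cilia of mice (ENSMUSG00000060176, chr13:58287516-58354862, minus strand, mm10), was at 1.15, 2.15 and 4.82 CPM in Sgo1-/+ libraries, against 2.31, 4.15 and 6.03 CPM in wild type libraries. Of the 6 Sgo1-/+ libraries, 5 lay below the wild type median, the exception being Sgo1-/+ 1. The log2 change was -0.88 ± 0.36 (edgeR p = 0.0274, adjusted p = 0.530; exact permutation p = 0.0325), and it ran from -1.20 to -0.73 when single libraries were left out. Kif9, a kinesin of sperm flagella and cilia in mice, was at 1.34, 1.61 and 3.46 CPM in Sgo1-/+ libraries, against 1.44, 2.77 and 6.40 CPM in wild type libraries. The highest value was in wild type 5, and the log2 change of -0.70 ± 0.39 (edgeR adjusted p = 0.596; exact permutation p = 0.149) was -0.41 without that library, -0.32 after adjustment for the mitochondrial-like share and -1.29 within the suffix libraries.

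Kif2a, the most abundant of the class and a depolymerase of spindle poles and axon branches, was at 37.4, 42.3 and 48.2 CPM in Sgo1-/+ libraries, against 37.3, 46.2 and 50.8 CPM in wild type libraries. The log2 change was -0.10 ± 0.10 (edgeR adjusted p = 0.761; exact permutation p = 0.271), or 0.23 with total counts as the only scaling. Kif24, which acts at centrioles to restrain cilia, and Kif26a, a non-motile kinesin of the mouse enteric nervous system, had log2 changes of -0.17 ± 0.23 and -0.39 ± 0.40 (edgeR adjusted p = 0.829 and 0.771). Both turned positive with total counts as the only scaling (0.19 and 0.05), Kif24 also without wild type 5 (0.02) and Kif26a within the suffix libraries (0.58, against -0.77 within the others). Kif26a averaged 2.32 ± 1.05 CPM in Sgo1-/+ and 3.15 ± 1.64 CPM in wild type libraries. Wild type 5 held the highest value of Kif9, Kif24 and Kif26a, and of 10 of the 41 members in all.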

How the data were processed

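Per the labels' protocols, mRNA purified from colonic mucosa went into TruSeq libraries read on a MiSeq. The submitters' processing notes list mm10 and DESeq; aligner, counter and strand setting: not given in the sources used here. The raw columns deposited by the authors were taken for expected counts, because 69.6% of the values above 0 were no whole numbers (tolerance 0). The normalized columns hold log2 values as deposited by the authors, which were recomputed within 0.001 for 100% of values and not used.

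Counts were rounded, and 505 rows without an Ensembl identifier, 1.79% to 5.40% of counts, were left out. The test over all 13889 genes kept was edgeR 4.0.16 in R 4.3.3 (TMM, glmQLFTest, filterByExpr at 10 counts and a total of 15) with Benjamini-Hochberg adjustment at 0.05, and SEs were derived from the F statistic. DESeq2 1.42.0 and limma-voom (limma 3.58.1) served as alternatives; 39 genes had no adjusted p in DESeq2. CPM used TMM scaling, and log2 CPM a prior count of 2. Single members were compared by exact two-sided permutation, and correlations with Mki67 by 100000 permutations, or exactly within a genotype. Per-kb levels used exon lengths of the GENCODE annotation of the same build. On simulated counts with 6 libraries per group the edgeR step recovered 46% of 100 genes changed by 1 on the log2 scale and 94% of 100 changed by 2, over 13668 genes.

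The labels give no animals, batches or days behind the replicate numbers, so the p-values reflect only how these samples vary, which may be in part technical. No 2 libraries were identical, and replicates differed by more than sampling noise. Members, classes and gene lists were chosen with earlier results of these data known. Genes given in full are Kif12, the 5 mitotic, 4 transport and 3 other kinesins with the smallest p, the most abundant member of each class, the 2 members of each partner, dynein and proliferation list with the smallest p, and Sgol1. Other members are named to account for the family. Racgap1, Cit, Cfd, Fabp4, Krt20, Car1, Muc2 and the further proliferation markers were named after their values were seen.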

Additional observations from a re-analysis of the deposited data

Results flagged for a closer look

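A set of 6 values stood apart from the other 5 libraries of their genotype by Dixon's test at 95%, out of 68 groups of 6 libraries examined, and chance alone flags about 1 group in 20. The groups were those of the 33 kinesins tested and of Kif26b. Kif26b was added by name though the filter left it out, and the other members left out were not examined. Its flags can therefore not be set against the chance rate. Kifc1 was at 2.54 CPM in Sgo1-/+ 3, against 5.44 to 6.79 CPM in the other Sgo1-/+ libraries, and its log2 change was 0.62 without that library and 0.49 with it. Kif14 was at 5.84 CPM in Sgo1-/+ 4, against 2.87 to 3.70 CPM in the others, and its log2 change was -0.55 without and -0.38 with that library. Kif21b, which restrains microtubule growth, was at 24.2 CPM in Sgo1-/+ 3, against 34.5 to 40.1 CPM in the others, with a log2 change of 0.03 without and -0.05 with it. Kifc2 was at 5.77 CPM in wild type 4, against 14.9 to 22.9 CPM in the other wild type libraries, and its log2 change was -0.38 without and -0.21 with that library.

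Kif26b was flagged in both genotypes, at 20.8 CPM in Sgo1-/+ 3 against 0.099 to 1.10 CPM in the other Sgo1-/+ libraries, and at 27.6 CPM in wild type 1 against 0.288 to 1.72 CPM in the other wild type libraries. Of the 6, 3 fall in Sgo1-/+ 3, where the mitochondrial-like genes took 36.3% of counts, and the part of that share in the values was not tested.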

How the results depend on the processing

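Over 24 alternatives, 913 of 940 recomputed values kept their direction and side of the threshold or stayed near the reported value. Single genes were judged by direction and call alone, and most alternatives called no gene, so this count says little about size. Kif20a, for example, kept both at 0.38 adjusted for the mitochondrial-like share and at 1.23 within the suffix libraries. With 0 genes called by edgeR (1256 at an unadjusted p under 0.05), DESeq2 called 30 genes and 1 kinesin, and edgeR called 1 gene adjusted for the mitochondrial-like share and 1 within the suffix libraries, while the count was 0 under every other alternative. The transport median was 0.29 with total counts as the only scaling, -0.12 within the suffix libraries and 0.083 within the others. With total counts only, which moved the median of all genes to 0.31 and put 1537 of 1694 genes at an unadjusted p under 0.05 on the higher side (599 of 1256 with TMM), Kif16b (0.15), Kifc2 (0.10), Kif2a (0.23), Kif24 (0.19), Kif26a (0.045), Kif15 (0.047), Kif2c (0.22) and Spag9 (0.099) turned positive. Kif15 was also positive with the replicate block (0.010), in libraries without the suffix (0.32) and when single libraries were left out (-0.30 to 0.26), and Kif2c within the suffix libraries (0.55) and when single libraries were left out (-0.20 to 0.14). Kif26a was positive within the suffix libraries (0.58), Kif24 reached 0.018 when single libraries were left out (lowest -0.28), and Cit was at 0.11 adjusted for the mitochondrial-like share. The number of kinesins related to Mki67 was 23 with total counts only, 5 without the 2 farthest libraries and 7 without either wild type 1 or wild type 2, the last pair chosen after seeing the data, against 8 as reported. Kifc1 was lost without wild type 1, and without wild type 2 Kifc1 and Kifc3 were lost and Kif12 gained. The cause of these shifts was not tested.

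Replicate numbers are shared between the genotypes, and no label says whether same-numbered samples belong together. The correlation of same-numbered deviations ran from -0.30 to 0.45, and 0 of 6 samples correlated best with their own number. So few values cannot exclude a pairing. The replicate block left 0 genes called (1644 at an unadjusted p under 0.05) and 0 kinesins, with a mitotic median of 0.43 and a transport median of -0.01. Depth limits the low members: Kif18b and Kif1a each rest on 2 counts in their lowest library, with SEs of 0.44 and 0.43.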

Other observations

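Kif4-ps, a row of the files listed as protein-coding that the symbol rule leaves out, was at 4.44 to 11.3 CPM in Sgo1-/+ and 3.18 to 6.90 CPM in wild type libraries, with a log2 change of 0.55 ± 0.29 (edgeR adjusted p = 0.583; exact permutation p = 0.117). It is a near copy of Kif4, and their reads may be split.

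In the promoter windows, the E2F motif TTCCCGC was found in none of 13 mitotic and none of 11 transport kinesins and in 2 of 9 other kinesins, Kif2a and Kif6, against 5.29% of all genes. The HNF1 core motif GTTAAT was found in none of 13 mitotic, 1 of 11 transport and 2 of 9 other kinesins, against 8.24% of all genes, and Kif12 was not among them. Among the kinesins outside the mitotic class, Kif24, Kif26b and Kif27 held both a CHR and a CCAAT box. Kif24 and Kif27 had r = -0.19 and -0.20 with Mki67 across the 12 libraries, and Kif26b was not tested.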
